A study of Homo sapiens with 4 samples.

Results

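A group of 10 cyclic nucleotide phosphodiesterase genes was followed in the human colorectal adenocarcinoma cell line DLD-1, on 2 arrays labelled HMGA2 and 2 arrays labelled vector. The genes were PDE2A, PDE3A, PDE3B, PDE4A, PDE4B, PDE4D, PDE7A, PDE8A, PDE9A and PDE10A, 10 of the 18336 genes named on the array. They were read through the 16 probes whose platform annotation gives such a symbol alone, out of 31741 probes in the table. The genes were chosen from the measured values of this same comparison, in particular the large PDE2A difference, so every value of theirs is a description and carries no test.

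The arrays labelled HMGA2 hold total RNA of DLD-1 cells stably transfected with pCMV6-HMGA2, a plasmid for HMGA2 tagged with tGFP, and the arrays labelled vector hold RNA of cells given pCMV6-AC-GFP. HMGA2 is an AT-hook protein that binds the minor groove of AT-rich DNA. Both lines are stable clones obtained under G418, an antibiotic, at 1 mg/mL and grown on at 0.5 mg/mL, and the cells were otherwise untreated. The labels do not say how many clones each line holds, nor whether replicate arrays stand for separate cultures. Errors therefore reflect spread between these arrays, which may be technical. They are moderated, so the error of a probe rests largely on other probes of like brightness.

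Cyclic AMP and cyclic GMP are made by cyclases and act through protein kinase A, protein kinase G, exchange factors and ion channels. Phosphodiesterases end the signal by hydrolysing the cyclic bond, and the families differ in substrate and regulation. PDE4, PDE7 and PDE8 prefer cAMP, PDE5, PDE6 and PDE9 prefer cGMP, and PDE1, PDE2, PDE3, PDE10 and PDE11 take both. In intestinal epithelium these messengers drive chloride and fluid secretion.

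Values are deposited intensities on a linear scale, and differences are log2 means on the arrays labelled HMGA2 minus those labelled vector. Probe brightness depends on the probe as well as on the transcript, so no gene's level is set against another's. Genes whose mean fell below the 25th percentile of all genes, 7.87 log2 or an intensity of 234, were not tested. A gene is called dim where this mean is under that limit, and dim in a group where the mean of that group is. The 5th percentile of all probes was 99 and 35 on HMGA2 arrays 1 and 2, against 16 and 46 on vector arrays 1 and 2, so values in that range differ between arrays of a group as well as between groups. The labels themselves were not borne out by the HMGA2 probes. The brighter HMGA2 probe read 3917 and 4369 on the arrays labelled HMGA2 and 5576 and 5270 on those labelled vector, and the other read 4596 and 3466 on the HMGA2 arrays against 2728 and 3493 on the vector arrays. Directions below rest on the labels. The colon epithelial marker EPCAM read 290962 and 281091 on the arrays labelled HMGA2 against 243656 and 234684 on those labelled vector, whereas CEACAM5 was below the dim limit in both groups. Of 8 epithelial markers tested 3 were called higher (EPCAM, CDH1 and VIL1) and 3 lower (KRT8, CDX2 and LGALS4), with KRT8 at 871 and 842 on the HMGA2 arrays against 4811 and 4398 on the vector arrays (log2 difference -2.43). Summed over the 9 epithelial markers measured, intensity ran from 528307 to 536654 on the HMGA2 arrays and from 457223 to 481961 on the vector arrays, and most of that sum came from EPCAM and KRT19, so it does not show the markers that fell. The 10 markers of leukocytes, endothelium and fibroblasts summed to 6004 to 6635 on the HMGA2 arrays against 7627 to 8601 on the vector arrays, of which CD14 gave 3175 and 3014 on the HMGA2 arrays against 4803 and 5183 on the vector arrays, with 5 of them dim in both groups and COL3A1 at -5 on vector array 1. Their part in the values below was not tested.

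PDE2A, which hydrolyses both cyclic nucleotides and belongs to the family in which cGMP binding to a GAF domain stimulates breakdown of cAMP, had the largest upward difference among the members tested. Its only probe read 715 and 636 on the arrays labelled HMGA2 and 89 and 121 on those labelled vector. Both HMGA2 arrays stood far above both vector arrays, and each group was tight. The log2 difference was 2.70 (SE 0.32), a ratio of 6.5. In a sample of many cells, more cells with the transcript and more transcript per cell cannot be told apart. The vector values lay below the 25th percentile of all probes on their arrays, 142 and 187, so the lower side of this ratio is uncertain. Set against the dim limit in place of the vector arrays, the mean on the HMGA2 arrays was 2.88 times higher. With 100 added to every intensity, the difference shrank to 1.92, its lowest under 9 ways of processing.

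The annotated promoter window of PDE2A is shown because this gene leads the family, and that of PDE4A, a lower member, because it alone among the members' windows holds the full cAMP response element. PDE10A is shown as the member with the largest downward difference. The windows are those of 1 of 5 annotated starts for PDE4A and 1 of 2 for PDE10A. Each runs from 250 bases before an annotated start to 50 after it, from RefSeq on GRCh38.p14, with TGACGTCA and its half-site TGACG, on either strand (CGTCA), in capitals. PDE2A lies at chr11:72674373-72674672 on the minus strand, PDE4A at chr19:10416523-10416822 on the plus strand and PDE10A at chr6:165662231-165662530 on the minus strand.
PDE2A: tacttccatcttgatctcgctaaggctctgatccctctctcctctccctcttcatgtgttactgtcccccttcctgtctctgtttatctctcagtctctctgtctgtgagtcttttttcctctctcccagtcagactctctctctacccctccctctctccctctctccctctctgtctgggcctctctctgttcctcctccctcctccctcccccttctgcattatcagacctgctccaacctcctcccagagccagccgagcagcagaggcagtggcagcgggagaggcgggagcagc
PDE4A: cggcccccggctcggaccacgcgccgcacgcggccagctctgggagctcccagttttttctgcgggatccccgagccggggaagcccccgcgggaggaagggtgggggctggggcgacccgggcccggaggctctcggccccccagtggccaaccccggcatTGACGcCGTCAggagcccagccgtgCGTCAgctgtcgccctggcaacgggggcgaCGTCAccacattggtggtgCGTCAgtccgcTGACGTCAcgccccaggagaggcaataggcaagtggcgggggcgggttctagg
PDE10A: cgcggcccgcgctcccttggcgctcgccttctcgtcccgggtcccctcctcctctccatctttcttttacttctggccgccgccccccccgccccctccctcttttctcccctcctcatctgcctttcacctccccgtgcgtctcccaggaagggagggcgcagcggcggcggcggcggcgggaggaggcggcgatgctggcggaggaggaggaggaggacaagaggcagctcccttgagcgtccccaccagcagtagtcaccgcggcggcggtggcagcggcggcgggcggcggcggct
The tables held 26 windows for 7 of the 10 genes. TGACGTCA occurred in 1 of those 26 and in 1.85% of all 35116 windows, and the half-site, which the full element contains on both strands, in 2 of 26 against 24.6% of all. In the PDE4A window the half-site was found 7 times, counting the full element on each strand, and the full element begins 3 bases before the annotated start. The PDE2A window held none, its longest run of A and T was 6 bases, equal to the median over all windows, and its GC content was 57% against a median of 58.7%. The PDE10A window shown also held none and had a longest A and T run of 5 bases. Which start these cells use was not measured, and a match is a stretch of letters, not a shown binding site.

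PDE10A, the other dual-specificity enzyme with GAF domains among the members, went furthest the other way. Its brightest probe read 89 and 25 on the arrays labelled HMGA2 and 454 and 467 on those labelled vector. The vector arrays agreed closely, while both HMGA2 values lay below the 5th percentile of their arrays, at the bottom of the measured range. The log2 difference of -3.29 (SE 0.51) is therefore poorly fixed in size. It ran from -4.33 after quantile normalization to -1.87 with 100 added, and was -4.20 without HMGA2 replicate 1 and -2.37 without HMGA2 replicate 2. Against the dim limit the mean on the vector arrays was 1.96 times higher. The second PDE10A probe read 127 and 77 on the HMGA2 arrays against 150 and 188 on the vector arrays, also lower on both (log2 difference -0.76, SE 0.53), with both groups dim. Averaged over its 4 arrays PDE10A was dim, so it was not among the genes tested.

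The PDE3 enzymes are known as the cGMP-inhibited phosphodiesterases and are important in insulin and cardiac signalling. They read lower for PDE3B, slightly so on its brightest probe, and at the bottom of the range for PDE3A. PDE3B read 416 and 391 on the arrays labelled HMGA2 and 501 and 563 on those labelled vector on its brightest probe. Its second probe read 164 and 113 on the HMGA2 arrays against 265 and 304 on the vector arrays. Both probes were lower on both HMGA2 arrays, with log2 differences of -0.40 (SE 0.23) and -1.06 (SE 0.39), and the second was dim on the HMGA2 arrays. PDE3A read 88 and 16 on the HMGA2 arrays against 3 and 33 on the vector arrays. The groups overlapped, every value lay below the 5th percentile of its array, and the difference of 1.92 (SE 2.87) changed sign to -0.50 after quantile normalization.

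Among the PDE4 enzymes, the cAMP-specific family that rolipram-type drugs inhibit, the members did not share a direction. PDE4B read 319 and 455 on the arrays labelled HMGA2 and 133 and 238 on those labelled vector on its brightest probe. A second probe read 332 and 253 on the HMGA2 arrays against 182 and 197 on the vector arrays, and the remaining probe read 138 and 145 on the HMGA2 arrays against 104 and 168 on the vector arrays. The first and second probes were higher on both HMGA2 arrays, with log2 differences of 1.10 (SE 0.34) and 0.61 (SE 0.34), while the remaining probe overlapped at 0.10 (SE 0.50) and was dim throughout. PDE4B on the vector arrays was dim on all of its probes.

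PDE4A read 175 and 286 on the arrays labelled HMGA2 and 407 and 455 on those labelled vector, with no overlap and a wider gap between the HMGA2 arrays than between the vector arrays. Its log2 difference was -0.94 (SE 0.30), and it ranged from -1.30 without HMGA2 replicate 2 to -0.59 without HMGA2 replicate 1. PDE4D, whose transcripts start at many promoters, read 172 and 108 on the HMGA2 arrays against 247 and 264 on the vector arrays on its brightest probe. That probe was lower on both HMGA2 arrays (log2 difference -0.91, SE 0.40). The other PDE4D probe overlapped, at 174 and 115 on the HMGA2 arrays against 134 and 191 on the vector arrays (-0.18, SE 0.47), and was dim in both groups. Averaged over all arrays PDE4D was below the dim limit.

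The cAMP-specific, high-affinity enzymes PDE7A and PDE8A, which rolipram does not inhibit, lay well above the dim limit and showed the smallest differences. PDE7A read 2866 and 3208 on the arrays labelled HMGA2 and 3219 and 2743 on those labelled vector. Its second probe read 1777 and 2139 on the HMGA2 arrays against 1880 and 2119 on the vector arrays. Both probes overlapped between groups, with log2 differences of 0.03 (SE 0.12) and -0.03 (SE 0.13). PDE8A read 3974 and 5618 on the HMGA2 arrays against 4343 and 5118 on the vector arrays. Its replicates differed more within the HMGA2 group than between the groups, and its difference was 0.00 (SE 0.12, or 0.18 in the fit of genes). The smaller SE draws on probes of like brightness more than on the spread of this probe. After quantile normalization, which raised the median of all genes from -0.09 to 0.09, PDE7A stood at 0.25 and PDE8A at 0.19.

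PDE9A, the cGMP-specific enzyme with very high affinity for that nucleotide, was the brightly measured member that differed. It read 2017 and 2165 on the arrays labelled HMGA2 and 1187 and 1014 on those labelled vector. The groups were far apart relative to their replicates, with means of 2091 ± 105 on the HMGA2 arrays and 1100 ± 122 on the vector arrays (SD, n = 2 each). The log2 difference was 0.93 (SE 0.14), a ratio of 1.9, and it stayed between 0.82 and 1.17 under the 9 ways of processing. Unlike PDE2A, neither group was near the dim limit, so this ratio does not rest on values at the bottom of the range.

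**Figure D1:**
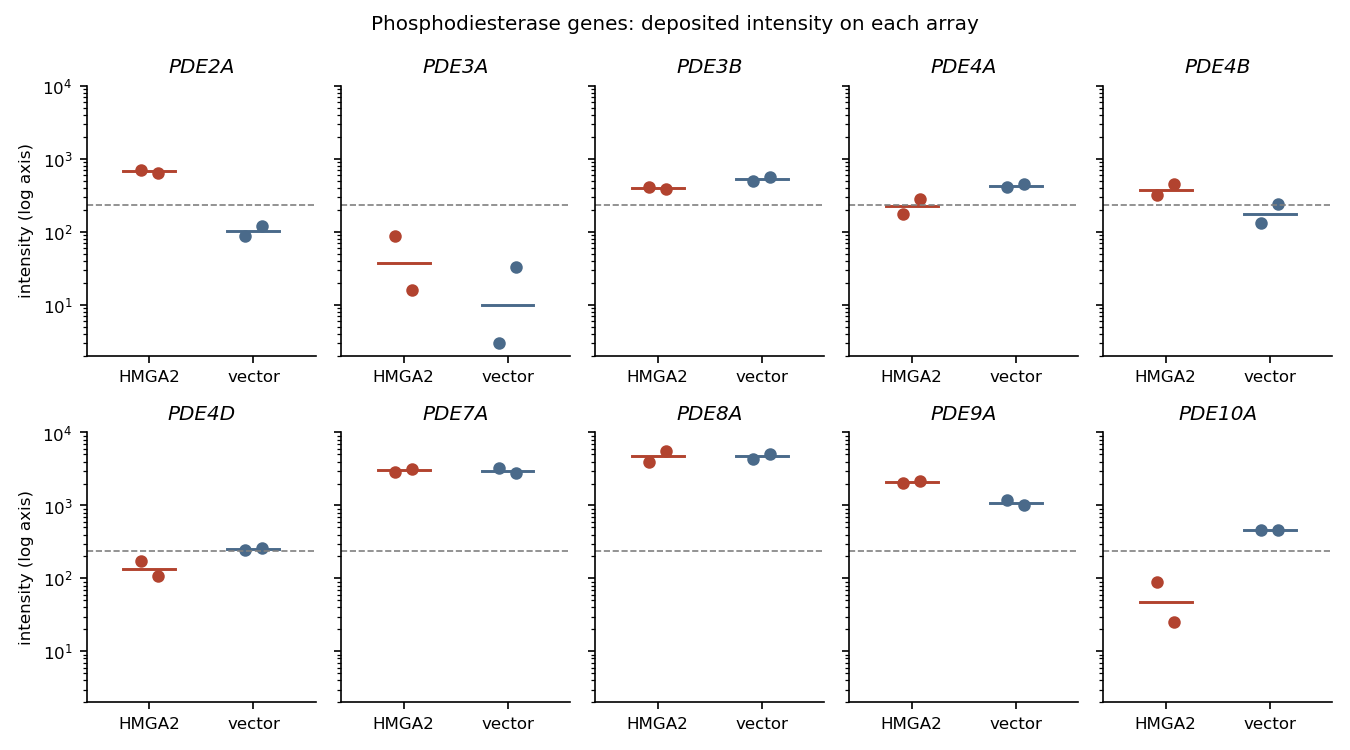
Deposited intensity (log axis) of the brightest probe of each of the 10 phosphodiesterase genes on the arrays labelled HMGA2 (red, left) and vector (blue, right); points are arrays, short lines are means of log2 values and the dashed line is the dim limit of 234. PDE2A, PDE4B and PDE9A are higher on both HMGA2 arrays, PDE3B, PDE4A, PDE4D and PDE10A lower, and PDE3A, PDE7A and PDE8A overlap.

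On their brightest probes, 3 of the 10 genes had both HMGA2 arrays above both vector arrays, 4 had both below, and 3 overlapped. The same separation was found in 27.7% of the 13752 tested genes upward and 43.6% downward, beside 3 above and 2 below among the 7 genes of the group that were tested. Over all 16 probes the counts were 4 above, 6 below and 6 overlapping. Of the 5 genes with more than 1 probe, PDE3B and PDE10A were lower and PDE7A overlapped on each probe, whereas PDE4B and PDE4D each had a dim probe that overlapped.

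Of the 10 genes, 7 passed the filter on dim genes, and in the limma fit across all genes 2 of them were called higher (PDE2A and PDE9A) and 1 lower (PDE4A), at an adjusted p threshold of 0.05. The PDE4A call (adjusted p = 0.0453) was lost after quantile normalization (adjusted p = 0.0972) and without HMGA2 replicate 1, vector replicate 1 or vector replicate 2. PDE4B, not called in the main fit (limma adjusted p = 0.0551), was called higher after quantile normalization (limma adjusted p = 0.0245). PDE2A and PDE4B passed the filter through the HMGA2 arrays alone and PDE4A through the vector arrays alone. The background was 43.6% of 13752 genes called, 14.9% higher and 28.7% lower, and because the genes were chosen on this contrast nothing is read from the count. After quantile normalization the background changed to 28% higher and 22.6% lower, or 3844 genes higher and 3114 lower in place of 2051 and 3943.

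**Figure D2:**
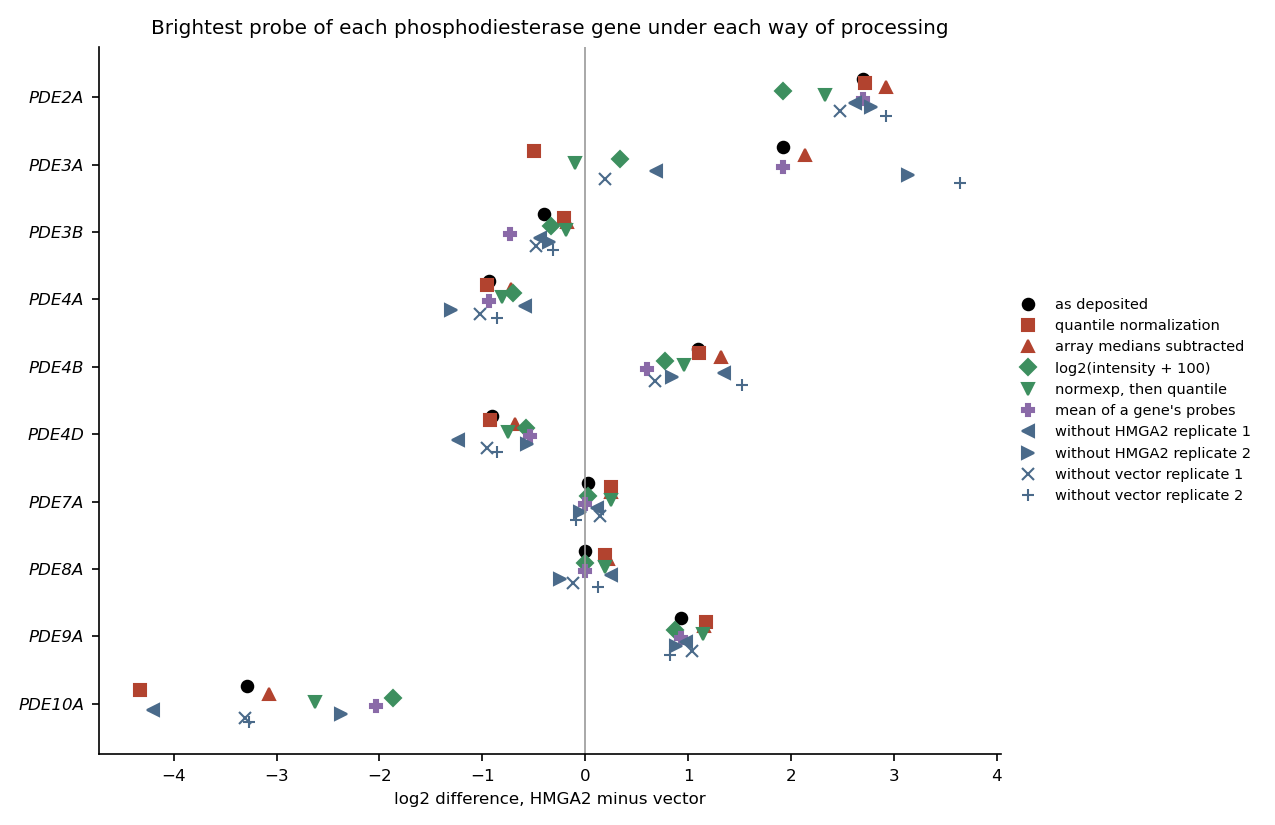
Log2 difference (HMGA2 minus vector) of the brightest probe of each gene as deposited (black circles) and under 9 other ways of processing, including each array left out in turn. PDE2A stays between 1.92 and 2.92 and PDE9A between 0.82 and 1.17, whereas PDE10A spans -4.33 to -1.87 and PDE3A spans -0.50 to 3.64.

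Of the remaining 11 catalytic phosphodiesterase genes, 6 were too dim on average to be tested, and 1 of the 5 tested was called, higher; after quantile normalization 4 of the 5 were called higher. PDE5A, the cGMP-specific enzyme that sildenafil inhibits, read 705 and 754 on the arrays labelled HMGA2 and 514 and 475 on those labelled vector. PDE5A rose (log2 difference 0.56, SE 0.20, or 0.15 in the fit of genes, limma adjusted p = 0.0262). The call was lost without HMGA2 replicate 1, HMGA2 replicate 2 or vector replicate 2, and on averaging the gene's probes. PDE6B (0.55, adjusted p = 0.125), PDE1B (0.11), PDE7B (0.12) and PDE6A (-0.29) did not pass in the same limma fit, whereas after quantile normalization PDE6B (0.68), PDE1B (0.37) and PDE7B (0.36) did. PDE8B, the paralogue of PDE8A, read 322 and 254 on the HMGA2 arrays against 90 and 158 on the vector arrays, higher on both HMGA2 arrays at 1.26, and was dim on the vector arrays and not tested. PDE4C (0.75), PDE1A (0.45), PDE1C (0.19), PDE6C (0.83) and PDE11A (-0.03) were dim in both groups and not tested.

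**Figure D3:**
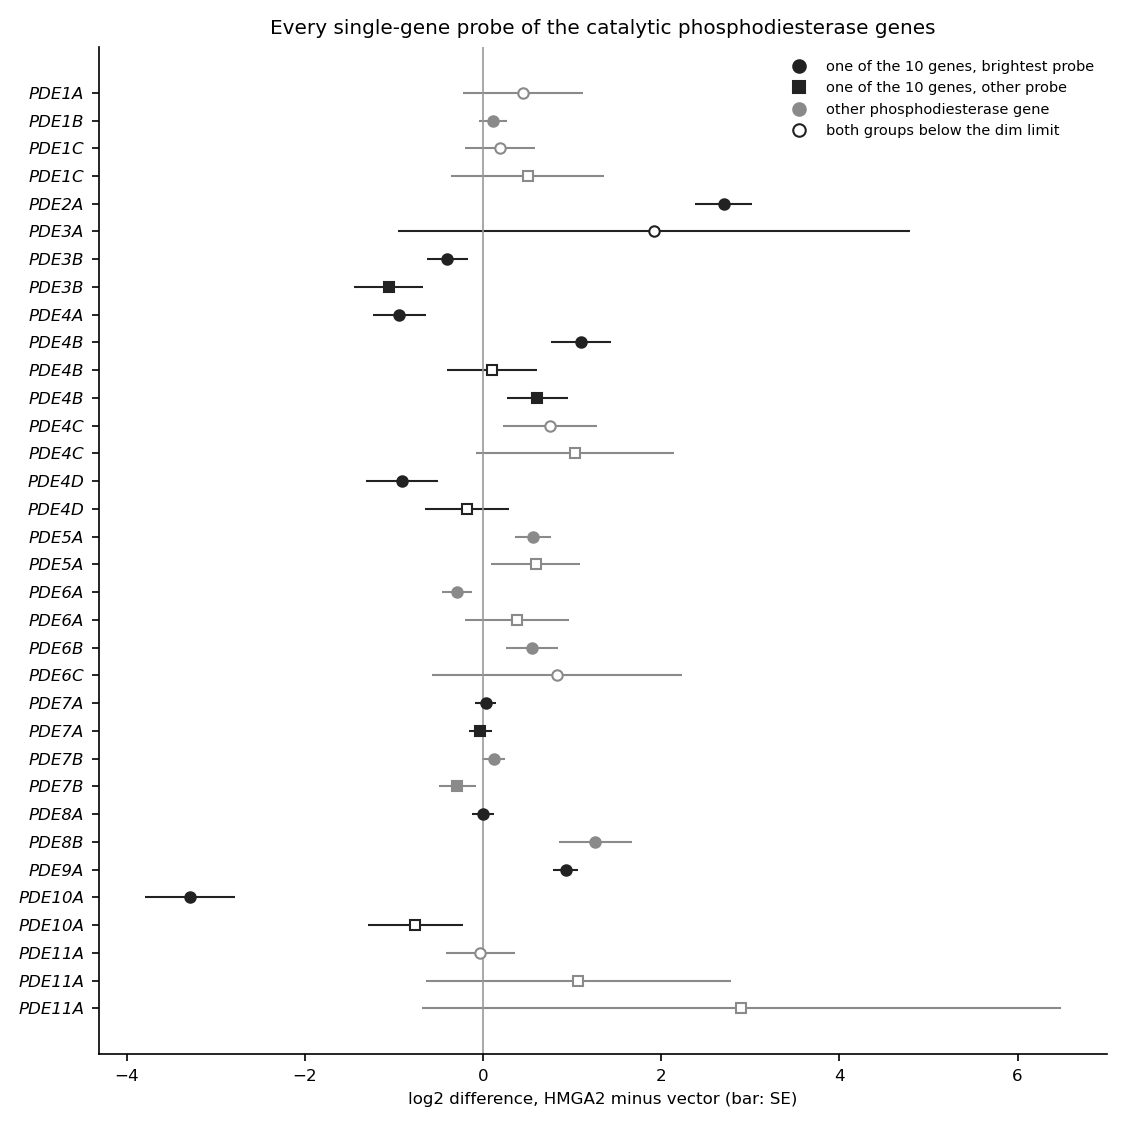
Log2 difference (HMGA2 minus vector) with its SE for all 34 single-gene probes of the 21 catalytic phosphodiesterase genes, black for the 10 genes followed here and grey for the others; circles are brightest probes, squares other probes, open symbols probes dim in both groups. The dim probes have the widest errors, and PDE2A and PDE10A lie furthest from 0 among the filled symbols.

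The genes with a pattern most like that of PDE2A over the 4 arrays, by Euclidean distance between log2 values centred on each gene's own mean, were PCOLCE2 (0.13), LCN2 (0.36), PRKCQ (0.37), GLMP (0.51) and SLC39A12 (0.52). PCOLCE2 read 697 and 674 on the arrays labelled HMGA2 against 83 and 122 on those labelled vector. All 5 were higher on both HMGA2 arrays than on both vector arrays. That follows from their choice by likeness to PDE2A on these same values, so nothing is read from it.

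Genes that make, sense and transmit the cyclic nucleotides were divided in direction. The lists around the 10 members held 147 genes, among them the 11 other catalytic phosphodiesterase genes already described. Of these 147 genes 104 were tested, and 17 rose and 21 fell, 36.5% against 43.6% of all genes. Their median difference was 0.00 against -0.09 over all genes. After quantile normalization 36 of them rose and 16 fell. The counts by list below stand beside 14.9% of all genes called higher and 28.7% lower, or 28% and 22.6% after quantile normalization.

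Protein kinase A, the main cAMP effector, had 4 of 9 tested genes higher and 3 lower, and 4 and 1 after quantile normalization. PRKAR1A, the regulatory subunit RI alpha that holds the kinase inactive until cAMP binds, read 16016 and 15737 on the arrays labelled HMGA2 and 43857 and 42815 on those labelled vector (log2 difference -1.45, SE 0.07, limma adjusted p = 0.00011). The catalytic subunit gene PRKACA rose by 0.73 (SE 0.14, limma adjusted p = 0.00771), at 6366 and 8402 on the HMGA2 arrays against 4447 and 4396 on the vector arrays. PRKACB fell on its brightest probe (-0.72), which its other probes, at 0.01 and 0.09, did not share, and the inhibitor gene PKIG fell (-0.49); both calls were lost after quantile normalization, and that of PKIG also without HMGA2 replicate 1 or vector replicate 1. The other rises, named after their values were seen, were PRKAR1B (0.48 on its brightest probe, against -0.33 and 0.09 on the others), PKIB (0.38, and 0.03 on its second probe) and PRKAR2A (0.28). The call for PRKAR2A was lost without any 1 of the 4 arrays and that for PKIB without either replicate 2.

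Of 12 tested A-kinase anchoring proteins, which tether the kinase to membranes and organelles, 1 rose and 5 fell, and 2 and 3 did so after quantile normalization. AKAP9, of the Golgi and centrosome, fell by 1.41 log2 (SE 0.10) to 1199 and 1127 on the arrays labelled HMGA2, against 2924 and 3246 on those labelled vector. AKAP12 (-1.08), AKAP1 (-0.73) and AKAP10 (-0.44) also fell, AKAP10 losing its call after quantile normalization and without HMGA2 replicate 1. The second AKAP12 probe, dim in both groups, overlapped between the groups at -0.35, and averaging the gene's probes lost the AKAP12 call. Among G alpha subunits GNAI1 (-1.55, SE 0.15) and GNAI3 (-0.67, SE 0.10), which inhibit adenylyl cyclase, fell, the only calls among 6 tested. After quantile normalization both were still called lower, and GNAI2 was called higher on its brightest probe (0.23, against 0.09 without it). The other GNAI2 probe was lower on both HMGA2 arrays, at 1487 and 1773 against 2064 and 2141 on the vector arrays (-0.37).

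Of 11 tested receptors that couple to Gs, 0 rose and 3 fell with limma (also 0 and 3 at an unadjusted p under 0.05), with 2 higher and 3 lower after quantile normalization. The bile acid receptor gene GPBAR1 (-1.29, though its dim second probe gave 0.32), the adenosine receptor gene ADORA2B (-1.08) and the prostaglandin receptor gene PTGER4 (-1.38, dim on the HMGA2 arrays) fell. The second PTGER4 probe, dim in both groups, overlapped between the groups at -0.12. The PTGER4 call was lost without either replicate 2. Of 8 tested adenylyl cyclase genes ADCY9 (0.71) and ADCY1 (0.65) rose and ADCY5 (-0.80) fell; ADCY9 and ADCY1 lost the call without HMGA2 replicate 1 and ADCY5 without vector replicate 2. The second ADCY5 probe, dim in both groups, overlapped between the groups at 0.04, and averaging the gene's probes lost the ADCY5 call. Quantile normalization gave 3 higher and 1 lower among the cyclase genes. On the cGMP side NPR2, the receptor guanylyl cyclase for C-type natriuretic peptide, rose by 0.74 (SE 0.12), the only call among 9 tested. After quantile normalization NPR1, its paralogue for atrial natriuretic peptide, was also called higher (0.57, against 0.33 without it). GUCY2C, the guanylin receptor of the intestine, read 168 and 96 on the HMGA2 arrays against 241 and 257 on the vector arrays and was not tested.

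Among CREB factors and coactivators 1 of 10 rose and 4 fell, with 3 and 2 after quantile normalization. CREM, which also encodes an inducible repressor of cAMP responses, rose by 0.76 (SE 0.08), and SIK3 (-0.82), CREBBP (-0.72) and EP300 (-0.56) fell, EP300 losing its call after quantile normalization and without vector replicate 2 or HMGA2 replicate 1. These differences are those of the brightest probes, and the second probes gave 0.00 for SIK3, 0.16 for CREM, -0.21 for CREBBP and -0.38 for EP300. The other fall, named after its values were seen, was CREB1, at -0.39 on its brightest probe. Its other probe was higher on both HMGA2 arrays (0.28), and the CREB1 call was lost after quantile normalization. Of 17 tested CREB target genes 5 rose and 3 fell, and 8 and 3 after quantile normalization. NR4A3, also named after its values were seen, was not called on its brightest probe (-0.24). Another NR4A3 probe read 2624 and 1901 on the HMGA2 arrays against 737 and 1061 on the vector arrays (1.34). The remaining NR4A3 probe, dim in both groups, overlapped at 0.02. BDNF (3.08 on the brightest of its 4 probes) and CITED2 (0.80) rose, while JUNB (-1.68) and RGS2 (-1.03) fell. Another BDNF probe was higher on both HMGA2 arrays at 0.70. The BDNF probes at 0.04 and 0.62, dim in both groups, overlapped. POPDC3 (0.78), of the cAMP-binding Popeye family, and ARRB1 (0.31), an arrestin that recruits PDE4 to receptors, rose, the only calls among 8 and 6 tested genes of their lists. The second POPDC3 probe, dim on the vector arrays, overlapped between the groups at 0.43, and averaging the gene's probes lost the POPDC3 call. After quantile normalization 3 rose and 1 fell in the Popeye gene's list of other effectors, and 3 rose and 0 fell in the arrestin's list of phosphodiesterase subunits and partners. The ARRB1 call was lost without any 1 of the 4 arrays. Of the 3 cyclic nucleotide exporters, 0 passed with limma, and 1 was higher at an unadjusted p under 0.05. Quantile normalization gave 1 called higher and 0 lower, the former being ABCC4 (0.57, against 0.43 without it). The other ABCC4 probe, dim on the HMGA2 arrays, was lower on both of them (-0.53 as deposited).

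**Figure D4:**
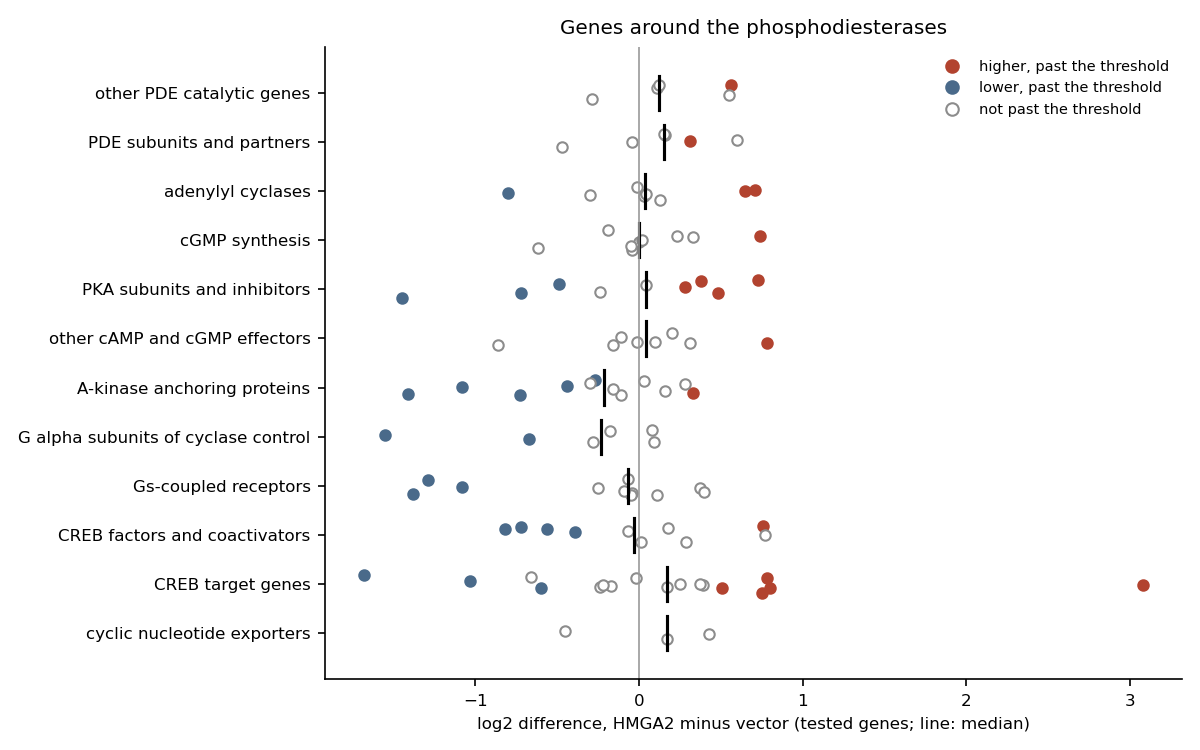
Log2 difference (HMGA2 minus vector) of each tested gene in the lists around the members, which include the other catalytic phosphodiesterase genes. Red points passed the threshold as higher, blue as lower, open points did not pass, and black lines are medians. Protein kinase A genes spread from -1.45 to 0.73. The calls among anchoring proteins and Gs-coupled receptors lie mostly to the left of 0, as do the calls over all genes tested (28.7% lower, 14.9% higher).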

How the data were processed

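Total RNA was amplified to antisense RNA, labelled with Cy5 and measured on single-colour arrays, per the labels' protocols. Each value in the deposited table is the authors' intensity of a probe on an array, on a linear scale; their background correction and normalization were not given in the sources used here. Groups came from the sample titles. Annotation pairs 24740 probes with 1 gene, 977 with several genes and 6024 with none; 1948 symbols were updated through RefSeq. Intensities under 1 were raised to 1 before taking log2, without normalization between arrays. The brightest probe stood for each of 18336 genes, and 4584 genes under the 25th percentile of mean level were dropped.

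Differences were fitted with limma 3.58.1 in R 4.3.3 (lmFit, eBayes with an intensity trend) on 13752 genes, calling genes at a Benjamini-Hochberg adjusted p of 0.05. Every adjusted p is from this fit, apart from those given after quantile normalization, which are from the same model on quantile-normalized values. SEs of the 10 members' probes and of the plotted phosphodiesterase probes come from a fit of all 31741 probes, in which probes of like brightness share most of the estimated spread; other SEs come from the gene fit. With 2 arrays a group, an exact two-sided permutation p is at least 0.333, and the number of arrays limits the precision. The fit was tried on simulated data with independent noise of the same spread for every gene. Errors on these arrays widen for dim probes, so nothing is read from that trial.

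The members, the gene lists and the tests were chosen with earlier results of these data known. Named were all members and every other catalytic phosphodiesterase gene, up to 4 genes per other list (the largest differences that passed without overlap between groups), and the 5 genes nearest to PDE2A. Of 14 alternatives, normexp correction with an offset of 50 and the crossed pairing were chosen after seeing the data. The difference between the HMGA2 replicates, taken in order of number, correlated with that between the vector replicates at r = -0.20 across genes. Arrays sharing a replicate number thus did not deviate together, and those of unlike number tended to. The main fit has no block, and the crossed pairing was run as an alternative.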

Additional observations from a re-analysis of the deposited data

How the results depend on the processing

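PDE2A, PDE3B, PDE4A, PDE4B, PDE4D, PDE9A and PDE10A kept the sign of their difference under all 9 alternatives that could change it, and PDE3A, PDE7A and PDE8A did not. The PDE2A difference was 1.92 with 100 added to each intensity, 2.33 with normexp and quantile normalization, and 2.48 to 2.92 with 1 array left out. The 2 members called higher and 1 called lower became 3 and 0 after quantile normalization, with normexp or without, 3 and 1 with array medians subtracted, 1 and 0 with the filter at the 50th percentile, where 3 members were tested, 3 and 2 with no filter, where 10 were, and 2 and 2 with no intensity trend. With 1 array left out, 2 to 3 members were called higher and 0 to 1 lower. With the replicate number as a block, 2 members were called higher and 0 lower, and with the crossed pairing 2 and 2; the numbers are not known to pair the arrays. Calls over all genes moved too, from 2051 higher and 3943 lower of 13752 genes in the main fit. They were 3844 and 3114 after quantile normalization, 3853 and 3122 with normexp added, and 3715 and 2479 with array medians subtracted. They were 2260 and 4136 of 18336 with no filter, and 1785 and 3078 of 9168 with the filter at the 50th percentile. With no intensity trend they were 1720 and 3641, with the replicate block 1819 and 3510, and with the crossed pairing 2590 and 4619. Nothing is read from the members' counts. Of the 147 listed genes around the members, 36, 36 and 34 were called higher after quantile normalization, with normexp added and with array medians subtracted. Of the 28 such genes named by rule, 15 kept their call under every alternative that measured them, 24 after quantile normalization, and 0 changed direction. The cause of these shifts was not tested. Members near the 5th percentile of an array (PDE3A, PDE10A) have no reliable size at this signal over background.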

Other observations

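ABCC5, which exports cyclic nucleotides from cells, had probes that parted completely. One probe read 69 and 8 on the arrays labelled HMGA2 and 2895 and 2831 on those labelled vector, with both HMGA2 values below the 5th percentile of their arrays, so that no size of difference is given, while the brighter probe read 3634 and 4945 on the HMGA2 arrays against 3845 and 3696 on the vector arrays, a difference of 0.17. Both carry the ABCC5 symbol alone, and the position of each within the gene was not used here. The beta-1 adrenergic receptor gene ADRB1 also had a second probe with a larger negative difference, at 127 and 49 on the HMGA2 arrays against 247 and 285 on the vector arrays, beside 659 and 657 on the HMGA2 arrays against 797 and 766 on the vector arrays on its brighter probe. Both genes were singled out after their values were seen, and neither brighter probe passed the threshold with limma.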
